A study of Mus musculus with 346 samples.

Results

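The cells described here were 51 single cells from the foregut of mouse embryos at embryonic day 8.5 (E8.5), each with a clear level of Rfx4 and none of Cldn6, set against 7 cells from the same plate with a clear level of Cldn6. Rfx4 encodes a transcription factor of the regulatory factor X family known from the embryonic neural tube, and Cldn6 encodes a tight junction protein of embryonic epithelia. The cells were chosen by the deposited log2 levels of these genes, with a cell placed among the Rfx4 cells at a level of 5 or more of Rfx4 and under 5 of Cldn6, and among the Cldn6 cells at 5 or more of Cldn6. A level is log2(normalized reads + 1), with a missing entry taken as 0, and a cell at 5 or more is said below to carry a gene. Of the 82 cells of the foregut plate, 51 were Rfx4 cells, 7 were Cldn6 cells and 24 were neither, out of 346 cells in the series. All cells of the plate were sorted for green fluorescence from dissected ventral foregut of Tg(Prox1-EGFP) mice, in which Prox1 regulatory sequence drives the fluorescent protein, and the labels give 1 genotype (Prox1-GFP), 1 stage and foregut endoderm as the source. The study as a whole also covers liver and pancreas progenitors of later embryos, sequenced cell by cell with Smart-seq2, a method that reads along whole transcripts.

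The level of Rfx4 was 6.0 at the lowest, 8.14 at the median and 10.17 at the highest in the Rfx4 cells, and 0 in every Cldn6 cell. The nearest plate cells outside the limit had Rfx4 at 3.87 and 0.90. Cldn6 had no read in any Rfx4 cell and in none of the 24 cells that were neither, and it lay between 10.37 and 12.32 in the 7 Cldn6 cells. No cell carried both genes. By the GENCODE annotation of GRCm38, Rfx4 lies at chr10:84756062-84906538, Nrcam at chr12:44328885-44601964 and Cldn6 at chr17:23679249-23682446, all on the plus strand, and Prox1 at chr1:190118035-190170714 on the minus strand. All are protein-coding genes. Outside the foregut plate, 0 of 264 cells carried Rfx4, while 105 of them carried Cldn6.

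The labels name no animal, so the cells of each kind count as 1 sample and no test was made between them. An SD below is the spread over cells, a 95% interval on a share is an exact Clopper-Pearson interval, and these intervals cover counting error only. Where 0 cells carried a gene, that count allows a share of up to 5.88% of Rfx4 cells and up to 42.9% of Cldn6 cells. Every gene of these cells counts as used by the rule that chose them, so all comparisons are descriptions. The cells were sequenced to similar depth, with 637501 to 1267793 reads (median 1019441) in Rfx4 cells and 896382 to 1133946 (median 1054283) in Cldn6 cells. The median number of genes with any read was 6647 in Rfx4 cells and 6174 in Cldn6 cells, and the mitochondrial share of reads had a median of 1.18% in Rfx4 cells and 1.80% in Cldn6 cells. Columns 1 to 6 of the plate held 27 Rfx4 cells and 2 Cldn6 cells, and columns 7 to 12 held 24 and 5. The highest correlation between any 2 of these 58 cells was 0.728, so none was a copy of another. No doublet caller was run.

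The vertebrate neural tube is patterned along its length by Hox genes, whose paralogue groups are switched on in numbered order from the hindbrain towards the tail, so that a cell's highest group marks how caudal it lies. Across its height it is patterned by Sonic hedgehog from the floor plate below and by BMP and Wnt signals from the roof plate above, which set domains of transcription factors such as Nkx6-1 ventrally, Pax6 in between and Pax3 dorsally. The ventral foregut endoderm is an epithelium that gives rise to the liver and ventral pancreas, and Prox1 is a homeobox gene known as an early marker of these organs' progenitors.

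The sequences upstream of Rfx4, which chose the cells, and of Prox1, whose regulatory region drove the sort, are shown because these genes define the cells compared. Each is the 250 bases before the RefSeq transcript start on the GRCm38.p6 assembly, on the strand of the gene, and for Rfx4 it belongs to 1 of the starts annotated for that gene. The Rfx4 stretch lies at chr10:84755798-84756047 on the plus strand, and capitals mark a Sox core motif (CATTGT, here on the other strand as ACAATG) that begins 22 bases before the start.
Rfx4: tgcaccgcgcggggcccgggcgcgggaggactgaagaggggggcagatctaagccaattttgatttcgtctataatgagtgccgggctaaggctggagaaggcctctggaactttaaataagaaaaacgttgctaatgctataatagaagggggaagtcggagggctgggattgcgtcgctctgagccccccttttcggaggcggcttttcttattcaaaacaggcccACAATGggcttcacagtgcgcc
The Prox1 stretch lies at chr1:190170828-190171077 on the minus strand.
Prox1: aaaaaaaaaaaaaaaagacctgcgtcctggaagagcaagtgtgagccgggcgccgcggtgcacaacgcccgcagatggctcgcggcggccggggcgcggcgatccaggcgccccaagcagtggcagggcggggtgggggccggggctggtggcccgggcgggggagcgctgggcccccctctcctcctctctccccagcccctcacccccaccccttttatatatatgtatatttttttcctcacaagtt
Searched on both strands, the Sox motif occurred in 10.7% of 32851 such stretches in the RefSeq table, the RFX half-site GTTGCC in 10.4% and the Fox motif TGTTTAC in 3.17%. The Prox1 stretch held none of these letters, and the Rfx4 stretch held neither the Fox motif nor the RFX half-site. A match is a run of letters and not a site shown to be used.

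**Figure D1:**
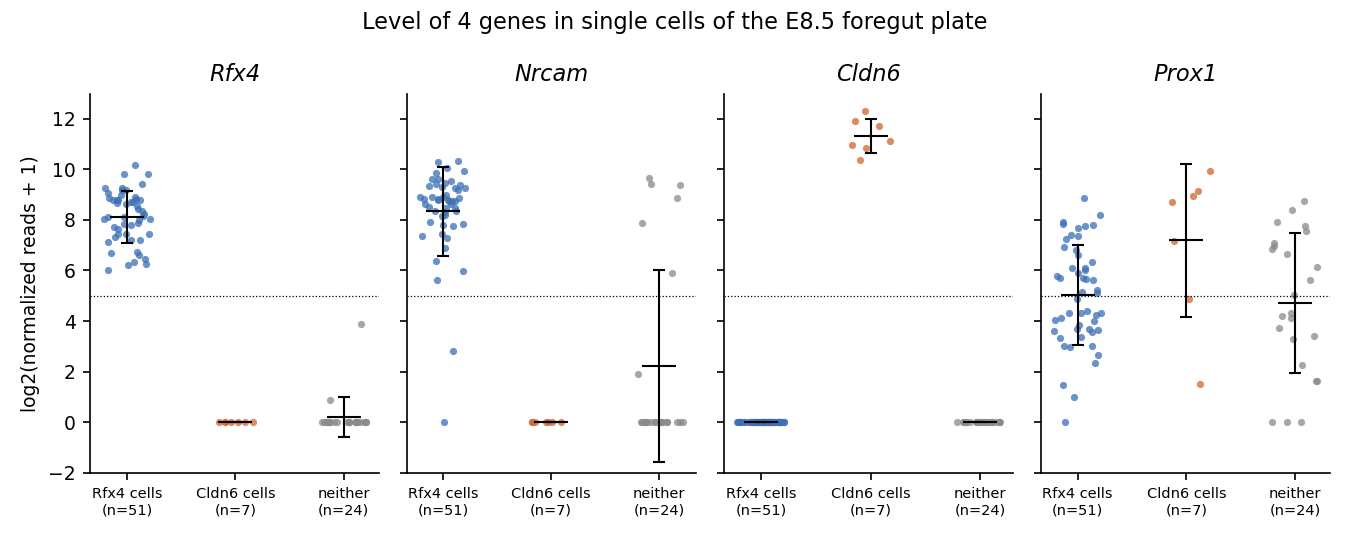
Each point is the level of Rfx4, Nrcam, Cldn6 or Prox1 in 1 cell of the foregut plate, as log2(normalized reads + 1), for 51 Rfx4 cells, 7 Cldn6 cells and 24 cells that were neither, with the mean and SD over cells as bars and the level of 5 as a dotted line. Rfx4 and Cldn6 separate the cells because they chose them, Nrcam follows Rfx4 in 49 of 51 cells, and Prox1 overlaps between all 3 kinds.

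The Rfx4 cells had the genes of neural progenitors and some of those of cell adhesion in the nervous system, and few of those of an epithelium. Nrcam, a neuronal cell adhesion molecule, had a median of 8.77 and a highest level of 10.34 in the Rfx4 cells, with 1 cell at 0, and no read in the 7 Cldn6 cells. It was carried by 49 of 51 Rfx4 cells. Only 7 of the 264 cells of the other plates carried it, and 6 of the 24 foregut cells that were neither did. Of the genes at 5 or more in at least 25% of the cells of 1 kind, 8165 in all, 2424 (29.7%) were higher in Rfx4 cells by at least 1 on the log2 scale and 1854 (22.7%) were lower, with a median difference of 0.18. The SD over cells was above 1 for 91.5% of these genes, with a median of 2.73, so a difference of 1 between 51 and 7 cells lies inside the usual spread between cells. The values of both kinds did not overlap at all for 3 genes higher in Rfx4 cells (0.0367%) and 29 lower (0.355%).

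The 3 genes without overlap were Rfx4 itself, Ptn and ccdc198. Ptn, which encodes the heparin-binding growth factor pleiotrophin, lay between 3.53 and 10.13 with a median of 8.85 in Rfx4 cells, and reached at most 0.86 in Cldn6 cells. The gene listed as ccdc198 lay between 7.06 and 10.32 in Rfx4 cells and at 0 in all Cldn6 cells but 1, which had 4.80. Further large differences were in metabolic and cell division genes as well as neural ones. Prps1, an enzyme of nucleotide synthesis, averaged 7.92 ± 2.05 in Rfx4 cells and 0 in Cldn6 cells, and was carried by 48 of 51 Rfx4 cells. Bcat1, which begins the breakdown of branched-chain amino acids, averaged 7.67 ± 1.89 in Rfx4 cells and had no read in Cldn6 cells. Zeb2, a zinc finger repressor of neural and neural crest development, averaged 7.74 ± 2.33 in Rfx4 cells and Crmp1, a mediator of semaphorin signals in growing axons, averaged 7.51 ± 2.73, both with no read in Cldn6 cells. Those genes were carried by 46 Rfx4 cells each. Mycn, the proto-oncogene of dividing neural progenitors, was carried by 43 Rfx4 cells and no Cldn6 cell, and Nek2, a centrosome kinase, by 45 and 0. Cdh2, the cadherin of the neural plate, averaged 7.26 ± 2.22 in Rfx4 cells and 0.54 ± 1.44 in Cldn6 cells.

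In the other direction, the keratins of simple epithelia were the widest apart. Krt8 was at 0 at the median and 6.37 at the highest in Rfx4 cells, against 10.73 to 12.77 in Cldn6 cells. Krt18 was carried by 6 of 51 Rfx4 cells, at up to 7.52, and by all 7 Cldn6 cells at 11.62 to 12.69. The imprinted genes H19 and Phlda2 were each at 0 at the median of Rfx4 cells, and averaged 9.83 ± 1.00 and 9.08 ± 1.37 in Cldn6 cells. Ttr, the thyroid hormone carrier made by liver and yolk sac endoderm, and Pyy, a gut peptide hormone, had no read in any Rfx4 cell. In the 7 Cldn6 cells Ttr lay between 5.18 and 11.82, and Pyy between 5.35 and 11.89. Car4, a membrane carbonic anhydrase, differed in being carried by 20 of 51 Rfx4 cells, with a highest level of 11.31 there, against 11.41 to 13.56 in Cldn6 cells. The remaining genes of this group were Spink1, a protease inhibitor, Bambi, a decoy receptor for BMP, Col1a2, a collagen chain, and Nrp1, a receptor for semaphorins and VEGF, each carried by all 7 Cldn6 cells and by 1 or 2 Rfx4 cells.

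**Figure D2:**
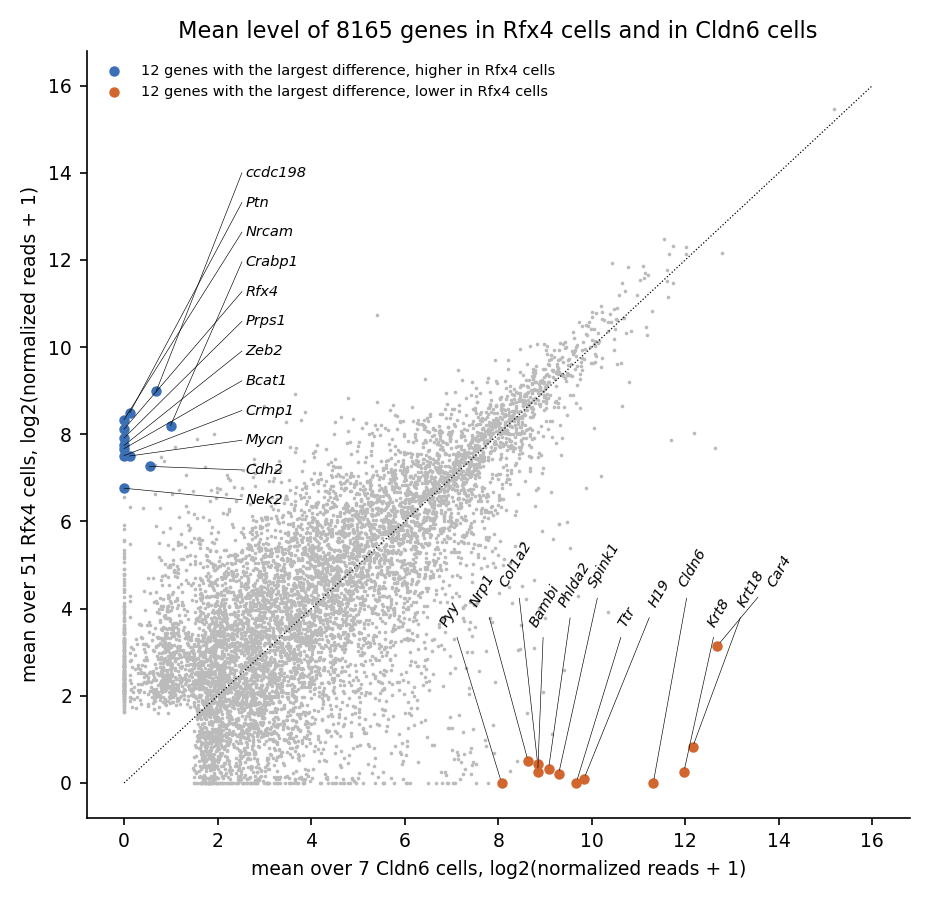
Each grey point is 1 of 8165 genes, with its mean level over 51 Rfx4 cells on the vertical axis and over 7 Cldn6 cells on the horizontal axis, both as log2(normalized reads + 1), and a dotted line of equal level. The 12 genes with the largest difference in each direction are coloured, and most lie near 0 on 1 of the axes.

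Read list by list, 16 of 19 neural progenitor genes with a row in the table were higher in Rfx4 cells by at least 1 and none was lower, with a median difference of 2.45. Over all 20474 genes with a row, 14.6% were higher by at least 1 and 10.3% were lower, and the median difference was 0.05. These shares are the background for every list count below, since list members were counted whether or not they were often carried. Among the 8165 genes at 5 or more in at least 25% of the cells of 1 kind, the shares were 29.7% and 22.7%. Those are the closer background for lists made mostly of such genes, such as the retinoid (13 of 16) and S phase (16 of 16) lists. Hes5, the Notch target that keeps neural progenitors from becoming neurons, had a median of 7.14 in Rfx4 cells, where 37 of 51 carried it, and no read in Cldn6 cells. Ncam1, the neural cell adhesion molecule, was carried by 47 Rfx4 cells and 1 Cldn6 cell. The SoxB1 genes of neural progenitors were low: Sox1 was carried by 16 Rfx4 cells, Sox2 by 13 and Sox3 by 1, at highest levels of 6.80, 7.13 and 5.16. No Cldn6 cell carried any of them. Nes, the progenitor intermediate filament, was carried by 21 Rfx4 cells and no Cldn6 cell. At least 3 genes of the list were carried by 50 of 51 Rfx4 cells, by 0 of 7 Cldn6 cells and by 12 of 24 of the cells that were neither. The list of neural cell adhesion and guidance separated the kinds less. Of its 25 genes with a row, 10 were higher in Rfx4 cells and 4 lower, with a median of 0.62. At least 3 of these were carried by all 51 Rfx4 cells, 6 of 7 Cldn6 cells and 23 of the 24 others.

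Genes of neurogenesis were found in part of the Rfx4 cells. Of 17 with a row, 3 were higher by at least 1 and 1 was lower, with a median of 0.08, and 11 were carried by at least 1 Rfx4 cell. As a list this is near the 14.6% higher and 10.3% lower over all genes with a row. At least 3 of the neurogenesis genes were carried by 18 of 51 Rfx4 cells, 0 of 7 Cldn6 cells and 1 of the cells that were neither. The Notch ligand Dll1, carried by progenitors about to become neurons, was carried by 17 Rfx4 cells, Stmn2, a tubulin regulator of neurons, by 14, and Tubb3, a neuronal tubulin, by 9. Neurog2, a neurogenic transcription factor, was carried by 2 Rfx4 cells, Elavl3 by 1 and Dcx by none. Among Cldn6 cells, 1 carried Tubb3 and none carried the other genes just named. Of the 18 Notch pathway genes, 9 were higher and 2 lower, with a median of 0.95. Jag1, a Notch ligand, was carried by 22 Rfx4 cells and had no read in Cldn6 cells, while Hes1, a broad Notch target, averaged 3.90 ± 3.22 in Rfx4 cells and 6.23 ± 2.00 in Cldn6 cells.

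Along the length of the neural tube, the Rfx4 cells ran, by their Hox genes, from the hindbrain to its border with the spinal cord. Of the 22 Hox genes reported here, an Rfx4 cell carried between 0 and 5, with a median of 3, and no Cldn6 cell carried any. Genes of group 1 were carried by 19 of 51 Rfx4 cells, of group 2 by 29, of group 3 by 42, of group 4 by 20 and of group 5 by 12. No Rfx4 cell had a read of the genes of groups 6, 7 and 8 that were analysed. Hoxa9 was carried by 1 cell, at 5.07, and was the only gene of a group above 5 with a read. In the mouse, genes of groups 1 to 4 are known to begin within the hindbrain, those of group 5 near its border with the spinal cord, and those of groups 6 and above within the spinal cord.

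Among these genes, Hoxd3 was carried by the most Rfx4 cells, 41 of 51, with a median of 5.94 and a highest level of 8.28. Hoxc4 was carried by 20 cells and had a read in 41, with a median of 4.62. Of the Hox genes reported here, 3 are of group 3 and 4 are of group 4. Group 3 was carried by 42 cells, against 41 for Hoxd3 alone. Group 4 was carried by 20 cells, as was Hoxc4 alone, so its other genes added no cell. At a level of 5, the counts for these groups thus rest almost wholly on Hoxd3 and Hoxc4. In Cldn6 cells Hoxd3 and Hoxc4 had no read. Hoxa2 was carried by 25 Rfx4 cells and Hoxb1 by 18, both with no read in Cldn6 cells. Hoxb2 had a read in 47 Rfx4 cells but reached 5 in only 5 of them, with a highest level of 5.63. Hoxa5 was carried by 7 cells, Hoxb5 by 4 and Hoxc5 by 2. The highest group that a cell carried was group 2 in 2 cells, group 3 in 18, group 4 in 16, group 5 in 12 and group 9 in 1, and 2 cells carried none of the 22 genes. Counting any read in place of a level of 5, it was group 3 in 6 cells, group 4 in 27, group 5 in 17 and group 9 in 1. Neighbouring Hox genes overlap with each other and with antisense transcripts, and whether reads were assigned by strand is not given, so reads of overlapping transcripts cannot be told apart.

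**Figure D3:**
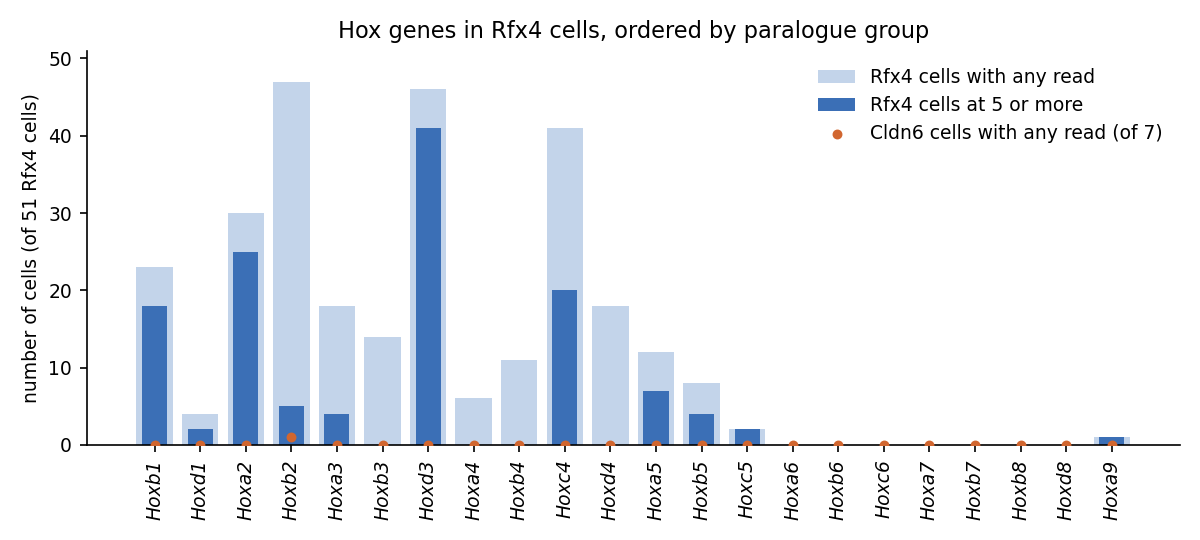
Pale bars give the number of the 51 Rfx4 cells with any read of each Hox gene reported and dark bars the number at 5 or more on the log2 scale, in order of paralogue group; points give the number of the 7 Cldn6 cells with any read. The bars run from Hoxb1 (23 cells with any read) to Hoxc5 (2), are tallest for Hoxb2 (47) and Hoxd3 (46), are empty for groups 6 to 8 and end with 1 cell for Hoxa9.

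Other genes with a known place along the neural tube were read beside the Hox genes. Gbx2, known from the rostral hindbrain, was carried by 13 Rfx4 cells and no Cldn6 cell. Of these 13 cells, 9 also carried Hoxd3 and 4 carried Hoxc4. Their highest Hox group was 4 or more in 7 cells, and group 3, a lower group or none in 6. Egr2, the gene of the odd-numbered middle hindbrain segments, had no read in any Rfx4 or Cldn6 cell. Of 7 genes of the midbrain and its border with the hindbrain, 2 were higher in Rfx4 cells by at least 1 and 1 was lower, with a median of 0.24. The higher genes were Gbx2 and Sp8, a zinc finger gene that is also on the intermediate neural tube list, which was carried by 26 Rfx4 cells and no Cldn6 cell. At least 1 gene of the list was carried by 35 Rfx4 cells and at least 3 by 2. Pax2 and Pax5 were carried by 1 Rfx4 cell each, Wnt1 by 3 and Pax8 by none. Lhx2, of the forebrain, reached 3.64 at most in Rfx4 cells, and Barhl1, of the diencephalon and midbrain, reached 0.85. They were the only genes analysed here of their lists of 13 and 5, so the values do not show whether Rfx4 cells had other genes of the forebrain.

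The rostral hindbrain list had 6 of 11 genes higher by at least 1 in Rfx4 cells and 1 lower, with a median of 1.62, and the caudal hindbrain list had 3 of 9 higher and none lower, with a median of 0.85. The list of Hox groups 5 and above had 1 of 11 higher and none lower, with a median of 0. At least 3 genes of the rostral list were carried by 31 Rfx4 cells, of the caudal list by 2 and of the groups 5 and above by none. Hoxa2 and Hoxb2, of the rostral list, are known to be on in more caudal parts of the neural tube as well. The 1 lower member of the rostral list was Epha4, a receptor of segment borders, at 0.08 ± 0.58 in Rfx4 cells and 4.87 ± 3.35 in Cldn6 cells. Meis2, a cofactor of Hox proteins, was carried by 41 Rfx4 cells and 3 Cldn6 cells.

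Genes of the caudal end of the embryo, where neural tube and mesoderm share progenitors, were found in a minority of Rfx4 cells. Nkx1-2, of the caudal neural plate, was carried by 12 Rfx4 cells at up to 9.56, and Cdx1, an activator of Hox genes, by 8. T, the gene of the primitive streak and notochord, and Cdx2 had no read in Rfx4 or Cldn6 cells. Among the 29 Rfx4 cells whose highest Hox group was 4 or more, 9 carried Nkx1-2 and 6 carried Cdx1. Among the 22 cells with group 3, a lower group or none, 3 carried Nkx1-2 and 2 carried Cdx1. Median depth was 1052733 reads in the first of these sets and 1004229 in the second.

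Across the height of the neural tube, the Rfx4 cells were spread from ventral to dorsal, with most in the Pax6 domain. Pax6 was carried by 40 of 51 cells, with a median of 8.02 and a highest level of 9.72, and had no read in Cldn6 cells. The ventral genes were each carried by a smaller number of Rfx4 cells: Nkx2-9 by 18, Nkx6-1 by 17 and Foxa2, the gene of the floor plate and of endoderm, by 14. The dorsal genes Pax3 and Msx3 were carried by 9 and 7. Read together, and chosen after their values were seen, these 6 genes placed every Rfx4 cell: 21 cells carried a ventral gene, 12 carried a dorsal gene, the other 18 carried Pax6 alone, and none carried both a ventral and a dorsal gene. This depends on the genes taken: Olig3, another dorsal gene, was carried by 5 Rfx4 cells, of which 3 also carried Pax3 or Msx3 and 1 carried a ventral gene. With Olig3 counted, 14 cells carried a dorsal gene, 1 of them with a ventral gene, and 17 carried Pax6 alone. All 12 cells with a dorsal gene and 10 of the 21 with a ventral gene also carried Pax6. The 11 ventral cells without Pax6 all carried Foxa2.

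Over the 51 Rfx4 cells, Spearman's rho of Pax6 was -0.78 with Foxa2, -0.77 with Nkx2-9 and -0.55 with Nkx6-1. The cells share 1 plate, and Pax6 itself had a rho of 0.41 with the number of reads in a cell. The 21 ventral cells had a median of 967412 reads, the 18 cells with Pax6 alone 1051208 and the 12 dorsal cells 1046008, and the part of depth in these values was not tested. After every cell was thinned to 500000 reads, Pax6 was carried by 40 Rfx4 cells, Nkx2-9 by 18, Nkx6-1 by 17, Foxa2 by 14 and Pax3 by 9, as before thinning.

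**Figure D4:**
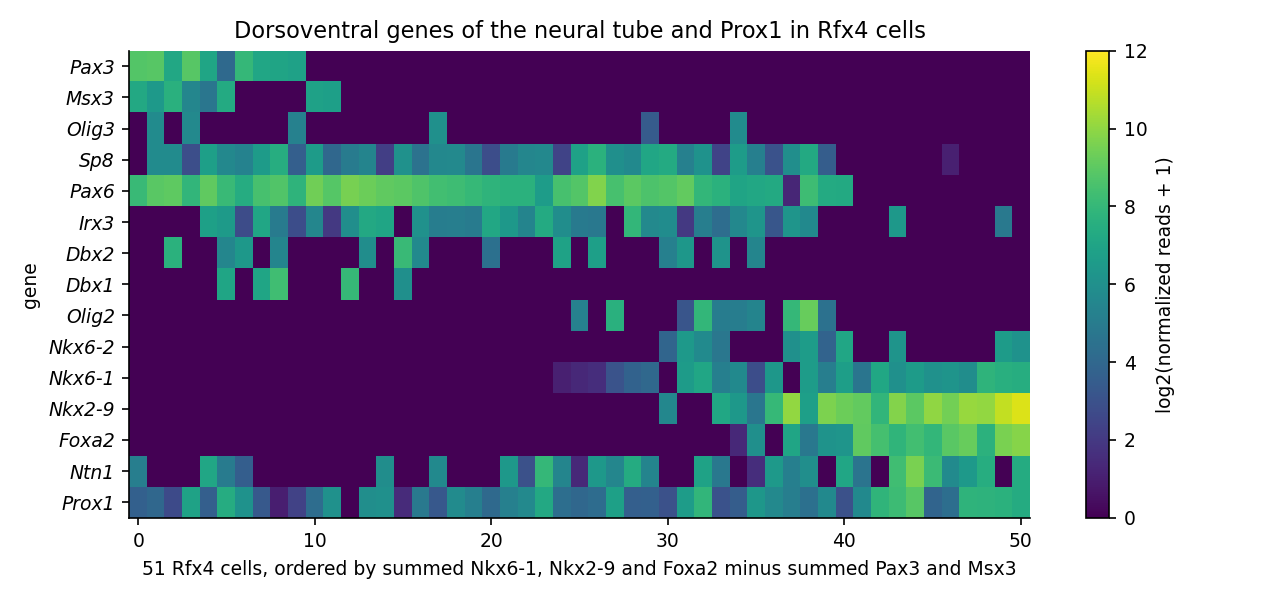
Each column is 1 of the 51 Rfx4 cells and each row a gene, coloured by log2(normalized reads + 1); cells run from dorsal at the left to ventral at the right, ordered by the summed levels of Nkx6-1, Nkx2-9 and Foxa2 minus those of Pax3 and Msx3. Pax6 fills the left and middle (40 cells), Pax3 and Msx3 lie at the far left (12 cells), and Nkx2-9 and Foxa2 lie at the right (18 and 14 cells).

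Genes that were not used for this ordering also differed in number between the sets, which are described without a test. Ptch1, the hedgehog receptor and itself a target of hedgehog signalling, was carried by 21 of 21 ventral cells, 15 of 18 cells with Pax6 alone and 4 of 12 dorsal cells. Gli1, another target, was carried by 14, 6 and 6, and Gli2, an effector of the pathway, by 13, 16 and 11. Netrin-1 (Ntn1), an axon guidance cue made in the ventral tube, was carried by 12, 9 and 2. Olig2, of motor neuron progenitors, was carried by 6, 2 and 0, and Nkx6-2 by 8, 0 and 0. Sp8 was carried by 7, 11 and 8, and Irx3, of the intermediate tube, by 7, 14 and 4. Nkx1-2 was carried by 0, 6 and 6 cells. The Hox genes ran through all 3 sets, with Hoxd3 carried by 15, 15 and 11 cells and Hoxc4 by 7, 10 and 3.

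Set against the Cldn6 cells, 5 of 11 hedgehog genes were higher in Rfx4 cells by at least 1 and none was lower, with a median of 0.71. Gli2 averaged 5.93 ± 3.18 in Rfx4 cells and Gli1 3.54 ± 3.24, both with no read in Cldn6 cells. Ptch1 averaged 7.37 ± 3.44 in Rfx4 cells and 7.15 ± 0.92 in Cldn6 cells, where all 7 carried it. The ligand Shh was carried by 3 Rfx4 cells and 1 Cldn6 cell. The intermediate neural tube list had 5 of 7 genes higher and none lower (median 1.69), and the ventral list 7 of 14 higher and 1 lower (0.95). The floor plate list had 4 of 15 higher and 3 lower (0.25), and the dorsal list 3 of 17 higher and 2 lower (0.27). Over all genes with a row, 14.6% were higher and 10.3% lower, and the dorsal list was near these shares. Foxa2 did not separate the kinds, with 2.33 ± 3.67 in Rfx4 cells and 3.97 ± 3.83 in Cldn6 cells.

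Retinoid genes were frequent in the Rfx4 cells, with 9 of 16 higher by at least 1, 3 lower and a median of 1.51. Retinoic acid is a signal known to pattern the caudal hindbrain and spinal cord. Its binding protein Crabp1 had a median of 8.84 in Rfx4 cells, where 47 of 51 carried it, and was carried by 1 of 7 Cldn6 cells, at 5.21. Crabp2, a related protein, averaged 10.73 ± 1.99 in Rfx4 cells and 5.41 ± 2.53 in Cldn6 cells. The receptor gene Rarb, also a target of retinoic acid, was carried by 42 Rfx4 cells and 4 Cldn6 cells. Stra6, the receptor that takes up retinol, was carried by 30 Rfx4 cells and Aldh1a2, the enzyme that makes retinoic acid, by 33, and neither had a read in Cldn6 cells. Stra6 was carried by 16 of the 21 ventral cells, 12 of the 18 with Pax6 alone and 2 of the 12 dorsal cells. Cyp26a1, which degrades retinoic acid, was carried by 1 Rfx4 cell and 2 Cldn6 cells.

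Aldh1a2 is best known from the somites and trunk mesoderm of the mouse, and Meox1, a somite transcription factor, was carried by 23 Rfx4 cells at up to 9.84, with no read in Cldn6 cells. Aldh1a2 was carried by 14 of the 23 Rfx4 cells with Meox1, a share close to that of Aldh1a2 among all Rfx4 cells. Of the 7 paraxial mesoderm genes with a row, Meox1 and Pax3 were higher by at least 1 and none was lower. Pax3, shared with the dorsal neural tube, was carried by 9 Rfx4 cells, Tbx6 by 1, at 5.06, and Tcf15 had a read in 1 cell, at 4.88. The other 3 genes of the list had no read in Rfx4 cells. At least 1 gene of the list was carried by 30 Rfx4 cells, and no cell carried 3. Its summed level lay between 0 and 15.46 in Rfx4 cells, with a median of 5.58, and at 0 in all Cldn6 cells. What part mesoderm RNA has in the Meox1 and Aldh1a2 values was not tested.

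Other cell types that a dissected foregut could hold were read the same way. At least 3 of 11 neural crest genes were carried by 2 Rfx4 cells, 0 Cldn6 cells and 3 cells that were neither, and at least 1 by 41 Rfx4 cells, mainly Cdh6 (37) and Sox9 (15). The defining neural crest genes Sox10 and Twist1 had no read in Rfx4 or Cldn6 cells. At least 3 of 14 cardiac genes were carried by 0 Rfx4 cells, 0 Cldn6 cells and 11 cells that were neither, and for the 14 mesenchyme genes these numbers were 0, 1 and 6. Endothelial genes reached that number in 3 cells that were neither and blood genes in none. At least 3 of 11 notochord and prechordal plate genes were carried by 6 Rfx4 cells, 3 Cldn6 cells and 2 cells that were neither, and at least 1 by 48 Rfx4 cells. The most frequent of these were Sfrp5 (37), Sox9 (15) and Foxa2 (14), while the notochord genes T, Noto and Chrd had no read in Rfx4 cells. Of 8 surface ectoderm and placode genes, at least 1 was carried by 11 Rfx4 cells and 3 by none. The part of these cell types in the results was not tested.

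The gene lists of endoderm were low in the Rfx4 cells, which goes against the labelled source of these cells. Of 22 foregut endoderm genes, 15 were lower by at least 1 and 1 was higher, with a median of -1.97. Foxa3, Sox17 and Gata4, transcription factors of endoderm, had no read in any Rfx4 cell, and were carried by 6, 4 and 5 of the 7 Cldn6 cells. Hhex, needed for the liver and ventral pancreas buds, was carried by no Rfx4 cell and by 6 Cldn6 cells, at up to 9.40. All 20 epithelial junction and keratin genes were lower in Rfx4 cells by at least 1, with a median of -5.45. Among them is Cldn6, which chose the cells, so its difference was fixed in advance. Epcam, the epithelial adhesion molecule, was carried by 4 of 51 Rfx4 cells, at up to 6.60, and by all 7 Cldn6 cells at 7.33 to 9.55. Cdh1, the epithelial cadherin, and the claudins Cldn4 and Cldn7 had no read in Rfx4 cells, and were carried by 6, 7 and 7 Cldn6 cells.

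The Cldn6 cells matched their label by these genes and had early liver genes as well. The liver and pancreas list had 9 of 18 genes lower in Rfx4 cells by at least 1 and 1 higher, with a median of -1.28. Afp, the fetal serum protein, was carried by no Rfx4 cell and 4 Cldn6 cells, and Tbx3, a liver bud transcription factor, by 0 and 6. Apom, an apolipoprotein, was carried by 6 Rfx4 cells and 5 Cldn6 cells, of 51 and 7. Alb had no read in either. Of 12 visceral and extraembryonic endoderm genes 6 were lower in Rfx4 cells and 1 was higher, with a median of -1.0, and Apoe, a lipid carrier of that list, averaged 3.91 ± 3.07 in Rfx4 cells and 10.34 ± 1.01 in Cldn6 cells.

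**Figure D5:**
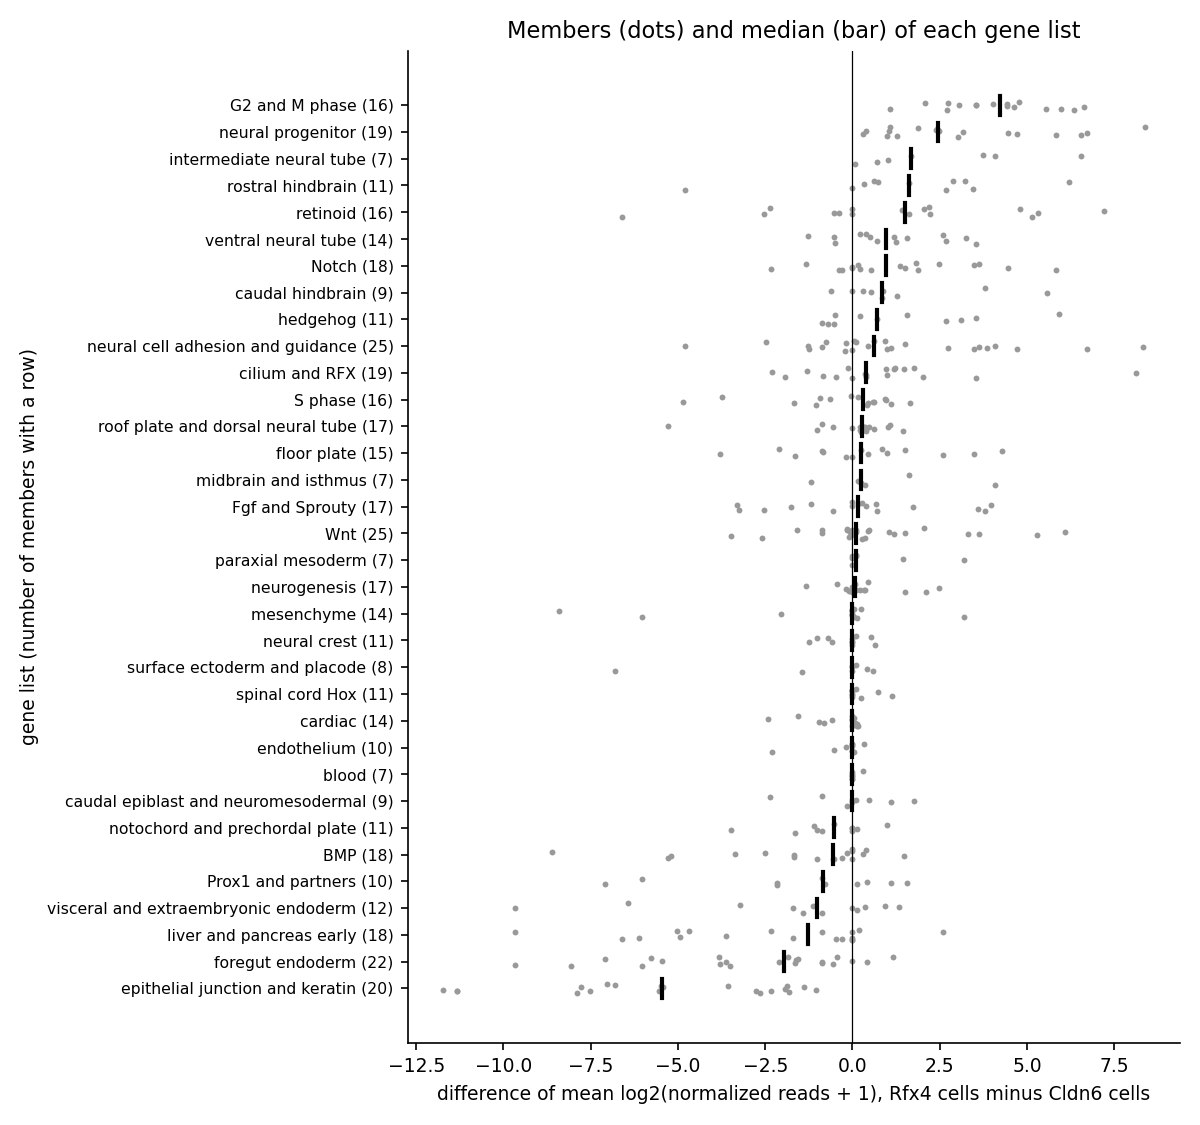
Each dot is a gene, placed by its difference of mean log2(normalized reads + 1), Rfx4 cells minus Cldn6 cells, in 1 row for each gene list with at least 5 members in the table; the black bar is the list's median. The medians run from -5.45 for epithelial junction and keratin genes to 2.45 for neural progenitor genes and 4.22 for genes of G2 and M phase.

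Signals of the BMP and Wnt pathways, which act on both tissues, were also read. Of 18 BMP genes, 8 were lower in Rfx4 cells by at least 1 and 1 was higher, with a median of -0.55. The BMP target Id1 averaged 3.79 ± 3.39 in Rfx4 cells and 8.99 ± 0.80 in Cldn6 cells, while Id3 averaged 9.36 ± 1.21 in Rfx4 cells and 9.53 ± 1.00 in Cldn6 cells. Bmp7, a ligand, was carried by 1 Rfx4 cell and 4 Cldn6 cells. Of 25 Wnt genes, 8 were higher and 3 lower, with a median of 0.12. The secreted Wnt inhibitor Sfrp1 averaged 8.0 ± 1.31 in Rfx4 cells and 1.92 ± 3.27 in Cldn6 cells, and Sfrp2 was carried by 38 Rfx4 cells with no read in Cldn6 cells. Sfrp5, of the same family and known from foregut endoderm, averaged 5.98 ± 3.45 in Rfx4 cells and 9.47 ± 0.66 in Cldn6 cells, and was carried by 37 of 51 Rfx4 cells.

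Prox1, the gene whose reporter was sorted on, was present in the Rfx4 cells at a lower mean level than in the Cldn6 cells, with wide overlap. Its level in the 51 Rfx4 cells was 0 at the lowest, 5.11 at the median and 8.89 at the highest. In the 7 Cldn6 cells it was 1.51, 4.89, 7.16, 8.73, 8.94, 9.16 and 9.95. The means were 5.04 ± 1.99 in Rfx4 cells, 7.19 ± 3.01 in Cldn6 cells and 4.72 ± 2.77 in the 24 cells that were neither. The difference of -2.16 between Rfx4 and Cldn6 cells is inside the SD of the Cldn6 cells but past that of the Rfx4 cells. It is about as large as the SD pooled over both kinds, 2.12. In reads, the median was 23 in Rfx4 cells (range 0 to 485), 414 in Cldn6 cells (2 to 1100) and 21 in the cells that were neither.

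Prox1 was carried by 26 of 51 Rfx4 cells (51%, interval 36.6% to 65.2%) and by 5 of 7 Cldn6 cells (71.4%, interval 29% to 96.3%). Any read of Prox1 was found in 50 of 51 Rfx4 cells and in all 7 Cldn6 cells. At a level of 7 or more there were 10 Rfx4 cells (19.6%, interval 9.82% to 33.1%) and 5 Cldn6 cells (71.4%, interval 29% to 96.3%). The intervals overlap at each of these limits, though only narrowly at 7. Overlap does not show that the shares are alike. Thinned to 500000 reads, 23 Rfx4 cells and 5 Cldn6 cells were at 5 or more. The transcript of the fluorescent protein itself was not analysed here.

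Within the Rfx4 cells, Prox1 averaged 5.89 ± 1.94 in the 21 cells with a ventral gene, 4.53 ± 1.78 in the 18 with Pax6 alone and 4.29 ± 1.96 in the 12 with a dorsal gene. It was carried by 14, 8 and 4 of these cells. The ranges were 2.99 to 8.89, 0 to 7.25 and 1.02 to 7.41, so the sets overlap along most of their length, and the differences of the means are smaller than the SDs. Over the 51 cells, rho of Prox1 was -0.47 with Pax6, 0.40 with Foxa2, 0.40 with Nkx6-1, 0.30 with Nkx2-9, 0.28 with Rfx4 and -0.14 with the number of reads. By axial level, Prox1 averaged 4.91 ± 1.82 in the 29 Rfx4 cells whose highest Hox group was 4 or more and 5.20 ± 2.23 in the 22 with group 3, a lower group or none.

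The genes whose levels followed Rfx4 most closely over the 82 plate cells, by Spearman's rho, were Sh3bgrl (0.64), ccdc198 (0.64), Igsf9b (0.60), Nrcam (0.60), Hoxd3 (0.59), Nr6a1 (0.58), Dpysl5 (0.57) and Ednrb (0.57). Within the 51 Rfx4 cells, rho with Rfx4 was 0.53 for Sh3bgrl, 0.40 for Ednrb, 0.34 for Igsf9b and between 0.09 and 0.18 for the other 5 genes. Igsf9b, an adhesion molecule of synapses, was carried by 36 Rfx4 cells and had no read in Cldn6 cells. Nr6a1, an orphan nuclear receptor of the embryo, was carried by all 51 Rfx4 cells at 5.63 to 10.24, and by 3 Cldn6 cells. Dpysl5, a relative of Crmp1, was carried by all 51 Rfx4 cells and by 6 of the 7 Cldn6 cells, with means of 9.28 ± 1.04 and 6.44 ± 3.04.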

How the data were processed

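Per the labels' protocols, GFP+ cells went by FACS into 96-well plates of lysis buffer, were kept frozen, and were made into libraries with Nextera XT. STAR 2.5.3, Cufflinks, Cuffdiff 2.2.1 and GRCm38 are named per the submitters' processing notes; for the counter, annotation, size factors and cell filters, nothing is stated (not given in the sources used here). As deposited, the authors' table has log2 units and holds 20474 genes by 346 cells. That these are log2(normalized reads + 1) was read from the values: 1647510 of 1647530 were within 0.01 of a whole number of reads. Empty entries were taken as 0.

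Levels were averaged per kind of cell in Python 3.11.15 with numpy 2.4.6, pandas 2.3.3, scipy 1.17.1 and matplotlib 3.10.9, and the scripts were tested on simulated data. Genes named are Rfx4, Nrcam, Cldn6, Prox1, members of 36 gene lists, the 12 with the largest difference in each direction and the 8 most like Rfx4, other than mitochondrial, ribosomal protein, Y-linked and predicted genes and Xist. The cells and lists were chosen with earlier results of these data known. A list's members without a row were not analysed here, and some genes are not reported here. Alternatives were other pseudocounts, linear means, other scalings, thinning to 500000 reads, other limits, and leaving out cells with 3 markers of 1 of 6 other cell types.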

Additional observations from a re-analysis of the deposited data

How the results depend on the processing

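Of 16 alternative settings, 2 (Cldn6 cells with Epcam, and without Rfx4) kept the same 7 cells and so could change nothing. Under the other 14, 486 of 579 recomputed values moved by less than their spread (counts of genes by less than 1.5 times), 93 moved further and 0 changed sign, and 8 list medians are at 0. The median difference over all genes that passed the filter was 0.18, 0.06 with median-of-ratios scaling and 0.10 when scaled by total reads. Genes higher and lower by at least 1 numbered 1342 and 968 with a pseudocount of 10, and 1052 and 807 at a difference of at least 2. With a pseudocount of 0.1 the list medians were 3.71 for neural progenitor, 2.47 for rostral hindbrain, 1.68 for caudal hindbrain, 1.75 for Notch, 2.31 for retinoid, -3.07 for foregut endoderm, -1.92 for liver and pancreas and -7.95 for epithelial genes. With a pseudocount of 10 they were 1.27 for neural progenitor, 0.82 for rostral hindbrain, 0.23 for caudal hindbrain, 0.78 for retinoid, -0.99 for foregut endoderm, -0.70 for liver and pancreas and -2.98 for epithelial genes. As log2 ratios of linear means they were 4.72 for neural progenitor, 1.16 for midbrain and isthmus, 3.31 for rostral hindbrain, 1.71 for caudal hindbrain, 1.84 for dorsal, 4.65 for intermediate and 2.83 for ventral neural tube, 1.37 for floor plate, 0.85 for neurogenesis, 2.70 for hedgehog, 1.11 for Wnt, -3.91 for foregut endoderm, -3.41 for liver and pancreas, -5.04 for epithelial, -1.70 for visceral endoderm and -2.62 for Prox1 and partner genes. Without cells that carried 3 markers of 1 of 6 cell types (neural crest, cardiac, mesenchyme, paraxial mesoderm, endothelium, blood; 49 Rfx4 and 6 Cldn6 cells left), the epithelial median was -5.07. These moves follow from how each setting weights low values or which cells it keeps. The share of cells with Prox1 was 98.0% of Rfx4 cells and 100% of Cldn6 cells for any read, 86.3% of Rfx4 cells at 3 or more and 19.6% at 7 or more. With limits of 3 and of 7 for the genes that chose the cells, 52 and 43 cells were Rfx4 cells. No paired analysis was possible because the cells' numbers are only names. With 7 Cldn6 cells, 1 plate and no named animal, differences between embryos, between wells and between cell kinds cannot be told apart.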

Other observations

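Genes of the cell cycle also differed between the kinds of cell, described without a test. All 16 genes of G2 and M phase were higher in Rfx4 cells than in Cldn6 cells by at least 1, with a median difference of 4.22. Plk1, a kinase of mitosis, averaged 7.71 ± 3.22 in Rfx4 cells and 1.09 ± 2.52 in Cldn6 cells. Cenpf, a kinetochore protein, was carried by 45 of 51 Rfx4 cells and 1 of 7 Cldn6 cells. Ccnb1, the cyclin of mitosis, averaged 8.51 ± 1.62 in Rfx4 cells and 3.87 ± 2.79 in Cldn6 cells. Of 16 S phase genes, 2 were higher in Rfx4 cells by at least 1 and 4 were lower, with a median of 0.30. Ung, a DNA repair enzyme, averaged 3.63 ± 3.39 in Rfx4 cells and 8.49 ± 0.67 in Cldn6 cells, and Cdc6, which licenses replication origins, averaged 4.49 ± 3.74 and 8.24 ± 1.14. Pcna and Rrm2, also of S phase, were carried by every cell of both kinds.

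Among genes of Fgf signalling, Fgf15 was carried by 26 Rfx4 cells with no read in Cldn6 cells, and Fgfr3, an Fgf receptor, by 41 Rfx4 cells and 2 Cldn6 cells. The Fgf target Etv5 had no read in Rfx4 cells and was carried by 3 Cldn6 cells. Of 19 genes of cilia and of the RFX family, 7 were higher in Rfx4 cells by at least 1 and 3 were lower, with a median of 0.40. The higher genes include Rfx4, which chose the cells. Rfx7 averaged 3.54 ± 3.02 in Rfx4 cells with no read in Cldn6 cells, while Rfx6, known from pancreas development, had no read in Rfx4 cells and was carried by 2 Cldn6 cells.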
